A study of Drosophila melanogaster with 3 samples.

Results

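Promoter-proximal peaks of the Drosophila homeodomain protein HHEX, also called CG7056, were taken as the peaks whose summit lay over 100 and up to 500 bp from the nearest transcription start site (TSS) of a protein-coding gene. There were 1392 such peaks among the 5586 peaks of the reproducible list on the dm6 build, a share of 24.9%. The class was defined by position only, and neither the height of a peak nor its sequence entered the choice. Chromatin immunoprecipitation with sequencing (ChIP-seq) had been done on whole embryos, male and female pooled, aged 0 to 24 h, from 1 transgenic strain (CG7056-GFP) that stably expresses HHEX with GFP at its C-terminus. The labels describe the antibody as anti-GFP in one field and name HHEX in another, and chromatin was sonicated to 200 to 800 bp. The 3 biological replicates form 1 group, and no untagged or second condition was analysed here. Peaks therefore average over all tissues and all stages of embryogenesis, and a peak present in few cells cannot be told apart from weak occupancy in many. All replicates were called against 1 control alignment, which was not analysed here, so regions that any anti-GFP immunoprecipitation would enrich cannot be told apart from HHEX sites.

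Homeodomain proteins fold around the DNA major groove through a recognition helix and favour short A/T-rich words with a TAAT or CAAT core. HHEX is the fly member of a family known in vertebrates for roles in blood, liver and anterior endoderm. The core promoter of a fly gene is the short stretch around the TSS where RNA polymerase II and general factors assemble, and many broadly expressed genes carry there the word TATCGATA, bound by Dref, or a word with GGTCACAC, bound by M1BP. The stretch just upstream usually lacks a positioned nucleosome and holds sites of sequence-specific factors, while the stretch just downstream holds the pause site of the polymerase and the first nucleosomes of the gene.

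A set of 200 bp windows shows what such peaks look like, each centred on a summit, read on the strand of the gene and taken from genome release 6. They are the HHEX gene's own peak, the highest usable peak holding a searched word on either side, and the highest usable peak on each side whatever its words, where usable means off chromosome arms not printed here and with at most 30 untranslated bases. Capitals mark the word named for the window, and GGTCACAC and TTATTG are met here as their reverse complements. Other searched words can be present in lower case, also in the last window, where no word is marked.
HHEX, upstream, chr3R:21081223-21081422, minus strand, CAATTA in capitals: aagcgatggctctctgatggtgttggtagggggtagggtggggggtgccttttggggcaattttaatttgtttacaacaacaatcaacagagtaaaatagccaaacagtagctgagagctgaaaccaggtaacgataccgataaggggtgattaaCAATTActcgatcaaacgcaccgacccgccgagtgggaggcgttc
Atat, upstream, chr3L:9426772-9426971, minus strand, TATCGATA in capitals: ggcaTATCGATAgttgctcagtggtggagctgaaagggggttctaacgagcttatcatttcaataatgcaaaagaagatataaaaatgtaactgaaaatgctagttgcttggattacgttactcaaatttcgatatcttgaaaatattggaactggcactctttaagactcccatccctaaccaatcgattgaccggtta
Fdh, upstream, chr3R:10872542-10872741, minus strand, GGTCACAC in capitals: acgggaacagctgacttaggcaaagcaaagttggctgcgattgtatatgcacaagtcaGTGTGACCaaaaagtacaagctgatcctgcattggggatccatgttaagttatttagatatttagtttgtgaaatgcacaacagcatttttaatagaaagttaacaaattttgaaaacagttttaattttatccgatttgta
CG18549, upstream, chr3R:12449077-12449276, plus strand, TAATTA in capitals: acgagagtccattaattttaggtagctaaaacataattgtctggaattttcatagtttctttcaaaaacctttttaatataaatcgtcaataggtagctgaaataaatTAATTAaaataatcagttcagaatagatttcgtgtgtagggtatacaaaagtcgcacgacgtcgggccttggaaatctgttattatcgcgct
ph-p, upstream, chrX:2137224-2137423, minus strand, TTATTG in capitals: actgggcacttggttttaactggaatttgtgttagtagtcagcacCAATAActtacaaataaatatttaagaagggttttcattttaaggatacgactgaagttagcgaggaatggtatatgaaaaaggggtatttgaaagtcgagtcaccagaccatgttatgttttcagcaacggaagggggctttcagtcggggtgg
cnc, downstream, chr3R:23189967-23190166, minus strand, TATCGATA in capitals: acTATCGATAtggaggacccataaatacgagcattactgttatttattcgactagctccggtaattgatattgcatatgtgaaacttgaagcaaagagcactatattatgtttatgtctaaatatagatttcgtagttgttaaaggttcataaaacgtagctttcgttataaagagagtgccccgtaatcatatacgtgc
CG31751, downstream, chr2L:18677459-18677658, plus strand, TAATTA in capitals: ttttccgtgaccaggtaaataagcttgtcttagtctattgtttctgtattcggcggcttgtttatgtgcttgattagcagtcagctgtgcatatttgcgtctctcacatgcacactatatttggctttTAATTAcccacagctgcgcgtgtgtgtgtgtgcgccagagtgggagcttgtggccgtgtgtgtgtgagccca
scramb2, downstream, chr3L:3046351-3046550, minus strand: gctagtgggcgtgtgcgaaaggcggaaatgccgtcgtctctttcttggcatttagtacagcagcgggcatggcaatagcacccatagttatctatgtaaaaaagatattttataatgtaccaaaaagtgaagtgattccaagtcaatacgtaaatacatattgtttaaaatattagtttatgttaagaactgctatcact

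The HHEX window lay 397 bp upstream of the gene's TSS and had a GC content of 48.5%, the highest of these 8 windows. The Atat window, upstream of an alpha-tubulin acetyltransferase gene, had its summit 114 bp from the TSS and a GC content of 38%. The Fdh window, at a formaldehyde dehydrogenase gene, lay 261 bp upstream and had 34.5% GC. The CG18549 window lay 119 bp upstream and had 32.5% GC, with the palindrome near its centre. The ph-p window, at the gene of a Polycomb complex subunit, lay 469 bp upstream with 40% GC. On the downstream side, the window of cnc, which encodes a bZIP factor of the stress response, lay 352 bp past the TSS with 34.5% GC and is the only downstream member holding TATCGATA. The CG31751 window lay 201 bp downstream with 47.5% GC, and that of scramb2, a phospholipid scramblase gene, 361 bp downstream with 37% GC. No downstream member held GGTCACAC.

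Proximal peaks lay mainly on the upstream side. Of the 1392 summits, 1158 were upstream of their TSS and 234 downstream, so that 83.2% were upstream (exact binomial 95% interval 81.1 to 85.1%, which covers counting error only). Weaker regions at the same distance were split more evenly: of the 3029 proximal regions in the pooled list that overlapped no peak of the reproducible list, 1635 or 54.0% were upstream. The 3 replicates each had the same pattern when taken alone. Among the 5586 highest peaks of each replicate list, the upstream share of proximal peaks was 76.7%, 85.1% and 79.5% for replicates 1, 2 and 3. Among the lower regions of the same lists it was 52.0%, 49.8% and 51.4% in replicates 1, 2 and 3. The means were 80.4% ± 4.32 for the highest peaks and 51.1% ± 1.11 for the lower regions (SD, n = 3 lists), and no value of one set overlapped the other. In the exact two-sided sign-flip permutation test over the 3 lists, p was 0.25 both for upstream against downstream and for highest against lower, with the same direction in 3 of 3 lists; 0.25 is the smallest p that 3 lists can give.

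**Figure D1:**
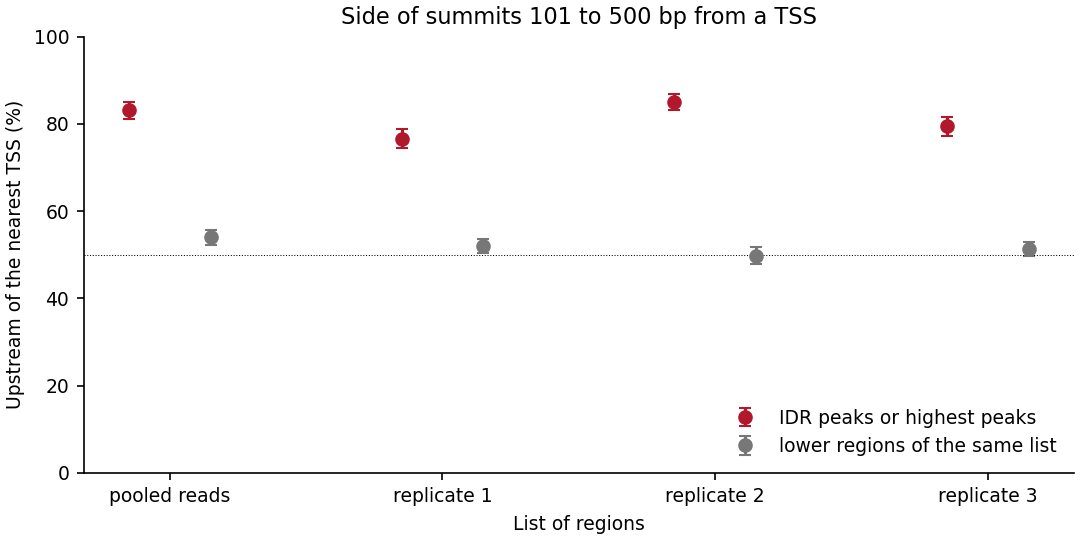
Share of summits over 100 and up to 500 bp from a TSS that lie upstream of it, with exact binomial 95% intervals, for the reproducible (IDR) peaks or each replicate's highest peaks (red) and for the lower regions of the same list (grey). The red points lie between 76.7 and 85.1% and the grey points between 49.8 and 54.0%.

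The class differed from its neighbours in this split. Core promoter peaks, with a summit at 0 to 100 bp, were 65.5% upstream, peaks at 501 to 1000 bp were 49.7% upstream, and peaks farther out were 38.1% upstream. Intervals were 62.4 to 68.5% for core promoter peaks and 45.4 to 54.0% for those at 501 to 1000 bp, neither of which reaches the interval of the proximal class. Upstream and downstream rings of the genome are not equally large. The upstream ring covered 5.12 Mb and held 226 peaks per Mb, against 6.57 Mb and 35.6 peaks per Mb in the downstream ring. Regions under the threshold numbered 320 per Mb upstream and 212 per Mb downstream.

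Upstream peaks were densest next to the core promoter and thinned out steadily. In bins of 50 bp, the density upstream was 427 peaks per Mb in the bin that ends at 150 bp, 331 in that ending at 200 bp, 192 in that ending at 300 bp and 104 in that ending at 500 bp. Downstream it was 85.7 peaks per Mb in the bin ending at 150 bp and 41.1 in that ending at 200 bp, and lay between 15.4 and 39.3 in the bins from there to 500 bp. The bin ending at 150 bp upstream had the highest density of all bins out to 1000 bp on either side, ahead of 416 per Mb in the bin ending at 100 bp upstream. Regions under the threshold were instead densest within 50 bp of the TSS, with 533 per Mb upstream and 530 downstream. The median distance was 201.5 bp upstream and 208 bp downstream, and 682 members (49.0%) lay at most 200 bp out.

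**Figure D2:**
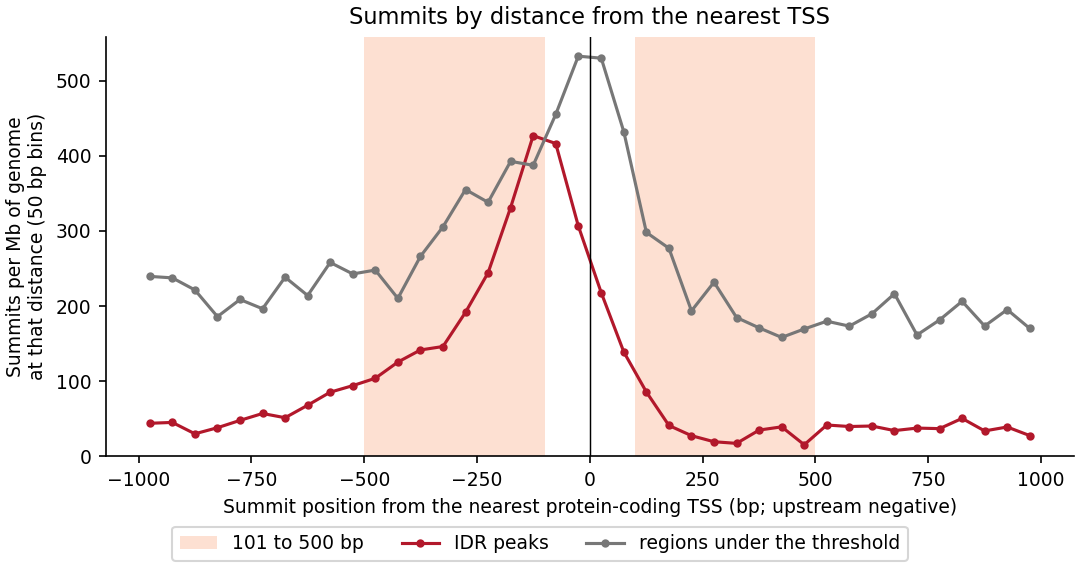
Summits per Mb of genome in 50 bp bins of distance from the nearest protein-coding TSS, upstream negative, for reproducible (IDR) peaks (red) and for regions of the pooled list under the threshold (grey); the shaded bands mark the proximal class. Red reaches 427 per Mb in the bin ending at 150 bp upstream and 85.7 per Mb in the matching bin downstream.

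The limits of the class do not fall at breaks in the data. Within 20 bp inside the inner limit were 173 peaks with a median signal of 272, and within 20 bp outside it were 184 peaks with a median signal of 268. At the outer limit there were 26 peaks within 20 bp inside it with a median signal of 336, and 28 within 20 bp outside it with 313. Signal is a height that the authors' peak caller wrote for each region, in its own units, and is used here only to rank and describe regions within a list. Members had a median width of 424 bp on both sides. For 36 of them the nearest TSS is used by a pair of genes, and no summit was equally far from TSSs on both sides. A TSS of a noncoding gene was nearer than the protein-coding one for 36 members (2.59%), 18 of them within 100 bp of the summit.

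By annotation, most upstream members were intergenic. Of the 1158, 640 summits (55.3%) lay between genes, 416 (35.9%) in introns, 42 in 5′ untranslated exons, 32 in exons of noncoding RNAs, 23 in 3′ untranslated exons and 5 in coding exons. The served gene, meaning the gene with the nearest TSS, itself spanned 393 of the upstream summits (33.9%), which therefore lay upstream of an internal TSS of that gene. The downstream members all lay inside the served gene: 115 (49.1%) in 5′ untranslated exons, 106 (45.3%) in introns, 12 in coding exons and 1 in a noncoding exon. Median signal was 341 for upstream intronic members and 304 for upstream intergenic members. Downstream it was 250 in introns and 219 in 5′ untranslated exons. Members were spread over the 6 chromosome arms much as all peaks were, with 256 on X, 260 on 2L, 268 on 2R, 275 on 3L, 330 on 3R and 3 on chromosome 4; the share on X was 18.4%, against 17.7% of all peaks.

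Many upstream members stood between a pair of genes transcribed away from each other. Protein-coding TSSs on opposite strands, at most 1000 bp apart, flanked 271 of the 1158 upstream members (23.4%, exact binomial 95% interval 21.0 to 26.0%), with a median gap of 402 bp between the TSSs. The same held for 174 of the 1635 upstream regions under the threshold, or 10.6%. In the replicate lists the share was 22.3% ± 2.15 for the highest peaks and 11.7% ± 1.53 for the lower regions (SD, n = 3 lists, higher in 3 of 3, exact permutation p = 0.25). For such members, upstream of one gene is also upstream of its partner, and the peak is counted under the nearer one. Divergent members had no steady difference in signal: the ratio of their median to that of the other upstream members was -0.17, 0.20 and -0.05 on the log2 scale in replicates 1, 2 and 3, and p was 1 in the exact permutation test. This description was added after the data were seen.

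Proximal peaks were higher than core promoter peaks, and the difference was steady across replicates only on the upstream side. The median signal was 295 for proximal peaks and 243 for core promoter peaks, a ratio of 1.21. The replicate ratios in this paragraph use only sites found in all 3 lists. These were 1238 of 1392 proximal peaks, 1060 of 1158 upstream and 178 of 234 downstream. They were 789 of 976 core promoter peaks and 484 of 541 peaks at 501 to 1000 bp. Read there in each replicate's own list, the ratio was 1.22, 1.22 and 1.16 in replicates 1, 2 and 3 (log2 ratio 0.26 ± 0.05, SD, n = 3 lists, exact permutation p = 0.25, 3 of 3 higher). Upstream members had a median signal of 314 and downstream members 231, a ratio of 1.36, and of 1.26, 1.42 and 1.14 in replicates 1, 2 and 3 (log2 ratio 0.35 ± 0.16, exact permutation p = 0.25, 3 of 3 higher). The log2 ratio over the peak list, 0.44, became 0.20 in the higher-signal part of the list. When 1 replicate was left out, only peaks among the 5586 highest regions of both other lists were kept, with their pooled signal. The log2 ratio was then 0.24 without replicate 1, 0.52 without replicate 2 and 0.23 without replicate 3. Downstream members gave no steady direction against core promoter peaks: the ratio of 0.950 became 1.00, 0.901 and 1.04 in the replicates, and the exact permutation p was 1. Against peaks at 501 to 1000 bp, with a median of 279, the ratio was 1.06, and 1.11, 1.23 and 1.09 in replicates 1, 2 and 3 (exact permutation p = 0.25).

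The upper end of the list was rich in upstream members. Of the 300 peaks of highest signal, 141 were proximal, 133 upstream and 8 downstream, against 48 at the core promoter, 34 at 501 to 1000 bp and 77 farther out. That is 11.5% of upstream members, 3.42% of downstream members and 4.92% of core promoter peaks, beside 5.37% of all peaks. The spread within the class was wide, with signals from 156 to 3089 and quartiles at 207 and 523.

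Most members were present in all 3 replicate lists. The replicate lists were input for the reproducible list, so the presence of its peaks in them is a description and no independent check. Each replicate list holds 30000 regions, peaks and background together. The summit lay inside a region of all 3 lists for 1238 of the 1392 members (88.9%, exact binomial 95% interval 87.2 to 90.5%), close to the background of 89.9% over all peaks. Under a stricter reading, 917 members (65.9%, interval 63.3 to 68.4%) had their summit among the 5586 highest regions of all 3 lists, against 59% of all peaks and 51.2% of core promoter peaks. Upstream members did so more often than downstream ones, with 808 of 1158 (69.8%) and 109 of 234 (46.6%). Core promoter peaks had the same order, with 57.9% upstream and 38.6% downstream. Replicate 2 accounts for most gaps: 121 members were absent from its list, against 27 from that of replicate 1 and 15 from that of replicate 3. Of the upstream members 94.0% were found in replicate 2, and of the downstream members 78.2%, while both sides reached at least 98% in replicates 1 and 3. Core promoter peaks were found in replicate 2 for 88.1% upstream and 76.6% downstream. Regions whose −log10 q reached 2 numbered 3212 in replicate 2, fewer than the 9759 of replicate 1 and the 6498 of replicate 3. Read depth is unknown, and its part in this difference was not tested.

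Position was kept closely between lists. The replicate's own summit lay a median of 11.5, 20 and 15 bp from the member's summit in replicates 1, 2 and 3. With that summit in place of the pooled one, 91.6%, 90.6% and 89.5% of the members found stayed in the class, and 99, 93 and 125 moved into the core promoter class. Signals ranked alike across the 1238 members found everywhere, with a Spearman rho of 0.751 for the pair 1 and 2, 0.837 for 1 and 3, and 0.790 for 2 and 3. These are descriptions across peaks, which share their pooled call and are not replicates. Members also share ground with each other: 122 intervals held the summit of another peak, 215 members had another summit within 500 bp, and a pair of members shared both start and end.

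Genes with the highest upstream members ranged from chromatin regulators to metabolic enzymes. The highest of all stood 197 bp upstream of px (plexus), a wing vein patterning gene, at 22514296 on 2R, with a signal of 1150, 939 and 1001 in replicates 1, 2 and 3 (1030 ± 108, SD, n = 3) and ranks 5, 18 and 6. It was followed by ph-p (polyhomeotic proximal), which encodes a subunit of Polycomb repressive complex 1, with a summit 469 bp upstream at 2137324 on X and signals of 916, 1206 and 907 (1010 ± 170). The ph-p gene also had the highest downstream member, 433 bp past another of its TSSs, at 2137938 on X, with signals of 665, 593 and 571 (610 ± 49.4). The 2 ph-p summits thus stand between 2 annotated starts of 1 gene. Next came mRpL41, a mitochondrial ribosomal protein gene, with 774, 1114 and 837 (908 ± 181), 143 bp upstream in a gap of 762 bp to the divergent gene CG8079. CG1888 had 938, 906 and 875 (906 ± 31.7) at 226 bp, and CG18549 had 952, 738 and 903 (864 ± 112) at 119 bp. In each of these 5 upstream peaks all 3 replicate ranks were at most 36, so each was near the top of every list.

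The other 7 of the 12 highest upstream members found in all 3 lists had means between 711 and 857. They were those of Art3, an arginine methyltransferase gene, 120 bp upstream (857 ± 124), Tcs5 at 107 bp (845 ± 223), Fkbp14, a peptidyl-prolyl isomerase gene, at 120 bp (784 ± 69.3), and Tina-1 at 167 bp (775 ± 114). Gapdh2, a glycolytic dehydrogenase gene, followed at 163 bp (756 ± 117), then Pal1, an enzyme of neuropeptide amidation, at 171 bp (738 ± 54.4), and CG5611 at 112 bp (711 ± 99.3). Of the 12, those of mRpL41, Art3, Tcs5, Pal1 and CG5611 lay between divergent TSSs at most 1000 bp apart, in gaps of 224 to 762 bp. The word TAATTA was present in the windows of CG1888, CG18549, Tcs5, Tina-1 and CG5611, and TATCGATA and GGTCACAC in none of the 12.

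Downstream members were lower from the start of the ranking. After that of ph-p came tank at 150 bp, with 500, 596 and 508 in replicates 1, 2 and 3 (535 ± 53.7), scramb2 at 361 bp with 446, 342 and 385 (391 ± 52.3), and CG31612 at 455 bp with 382, 395 and 311 (363 ± 45.2). The member at bchs (blue cheese, an autophagy gene) had the widest spread of the 12 between lists, with 418 and 396 in replicates 1 and 3 but 188 in replicate 2 (334 ± 127), at ranks 160, 156 and 791. Fer2LCH, the ferritin light chain gene, had 349, 363 and 275 (329 ± 47.0) at 144 bp. The remaining 6 had means of 259 to 323: wun, a lipid phosphate phosphatase gene of germ cell migration, bgcn, a germline differentiation gene, Vti1b, a SNARE gene, CG8128, CAH3, a carbonic anhydrase gene, and egh, a glycosphingolipid glycosyltransferase gene. Of the 12, 6 lay in introns and 6 in 5′ untranslated exons. Every replicate mean of the 12 upstream members exceeded every one of the 12 downstream members, as the ranking by signal led to, so this is a description.

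**Figure D3:**
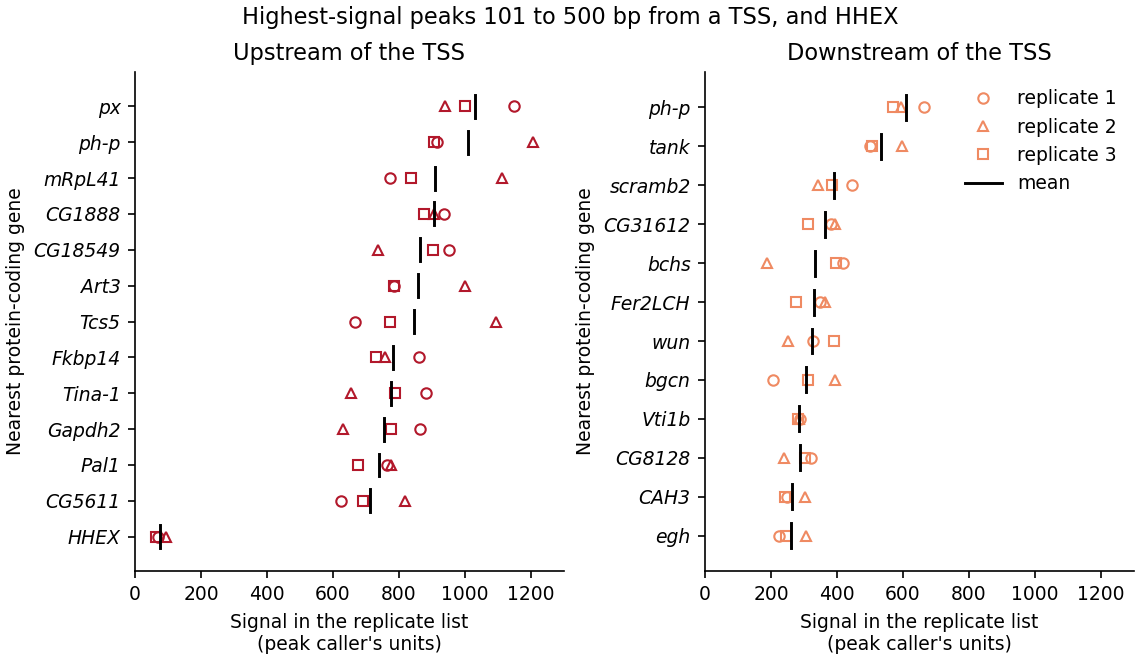
Signal in each of the 3 replicate lists, in the peak caller's units, for the 12 highest members upstream (left, with the HHEX peak below them) and downstream (right) that were found in all lists; symbols are replicates and the black bar is their mean. Upstream means run from 711 to 1030, downstream means from 259 to 610, and HHEX has 75.4.

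HHEX had a proximal peak at its own gene, in the lower part of the class. Its summit at 21081323 on 3R stood in intergenic sequence 397 bp upstream of the TSS, with a signal of 228 and rank 3290 of 5586. The replicate lists gave 69.8, 92.8 and 63.6 (75.4 ± 15.4, SD, n = 3) at ranks 4632, 2244 and 4836. For comparison, the 1238 class members found in all 3 lists had medians of 114, 108 and 107 in replicates 1, 2 and 3. All 3 HHEX values were below these medians, and those of replicates 1 and 3 also below the lower quartiles of 77.0 and 73.1. The embryos carry a tagged copy of HHEX, and DNA from it and from the resident locus cannot be told apart in these lists.

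In all, 1224 protein-coding genes were served by a proximal peak, 8.78% of 13945. For 997 of them the peaks were upstream only, for 173 downstream only and for 54 on both sides. A single proximal peak served 1081 genes, 123 had 2, 20 had 3 or more, and Rtnl1, a reticulon gene of the endoplasmic reticulum that was singled out after its values were seen, had the most with 6. Of the genes served by a proximal peak, 100 were also nearest to a core promoter peak. That is 8.17% of the proximal set, beside 6.86% of all protein-coding genes with a core promoter peak, and 10.5% of the core set of 956 genes, beside the 8.78% of all genes with a proximal peak. At the level of single start sites, 40 served TSSs had a peak in both classes. Served genes were long and had several starts: the median gene length was 5.38 kb for genes with upstream peaks and 6.75 kb for those with downstream peaks, against 3.25 kb for core promoter genes and 2.17 kb for all protein-coding genes. More than 1 TSS was annotated for 52.3% of the genes with upstream peaks and 73.1% of those with downstream peaks, against 55.0% of core promoter genes and 26.5% of all genes. A gene with more TSSs has more sequence within 500 bp of one, and this was not corrected for.

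The 12 gene lists by role were counted against the 8.78% of all genes, as a description. Chromatin genes are given first. Of 38 Polycomb and Trithorax genes, 6 (15.8%) were served: ph-p, brm, Trl, Sfmbt, tna and mor. The peak of brm, the ATPase of the Brahma remodelling complex, lay 132 bp upstream in a gap of 266 bp to the divergent gene Arl1 and had 350, 630 and 442 in replicates 1, 2 and 3 (474 ± 142). Trl, which encodes GAGA factor, had a downstream peak at 117 bp with 175, 252 and 187 (204.7 ± 41.2) and an upstream one at 332 bp. Of 26 insulator and promoter architecture genes, 5 (19.2%) were served, with Cp190, a cofactor of insulator proteins, highest at 138 bp upstream and 480, 388 and 340 (403 ± 71.3). Second was Trl, followed by lola, a BTB zinc finger gene, at 301 bp (164 ± 57.2), then by BEAF-32 and psq. Of 30 HMG, histone variant and chromatin factor genes, 6 (20%) were served, the highest being Sin3A, a corepressor scaffold gene, with 226, 195 and 271 (231 ± 38.2). For His3.3B, a replication-independent histone H3 gene, and HmgZ, an HMG box gene, the proximal site was missing from the replicate 2 list.

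Signalling, hormone and homeobox genes were next. Of 66 genes of the Wnt, Notch, Hedgehog, Dpp and EGF pathways, 14 (21.2%) were served, all 14 from upstream and 2 of them also from downstream. Most served genes have an upstream peak, 1051 of all 1224, so this is near the share for any served genes. The same holds for the homeobox genes below. Highest were sgg, the GSK3 kinase, with 449, 473 and 412 (444 ± 30.4) at 211 bp, spi, an EGF receptor ligand, with 272, 464 and 325 (353 ± 99.1) at 222 bp, and gro, a corepressor, with 276, 380 and 361 (339 ± 55.3) at 114 bp. Of 25 hormone and nuclear receptor genes, 6 (24%) were served, led by Hnf4, a nuclear receptor of lipid metabolism, with 199, 191 and 147 (179 ± 27.9) at 397 bp upstream, usp, the partner of the ecdysone receptor, with 96.6 ± 27.0 at 170 bp upstream, and Kr-h1, a juvenile hormone response gene, with 84.0 ± 12.2 at 410 bp downstream. Of 86 homeobox genes, 7 (8.14%) were served, a share near that of all genes, and all 7 from upstream: tin, NK7.1, PHDP, so, HHEX, bcd and cad. Of the same 86, 1 (1.16%) was nearest to a core promoter peak, beside 6.86% of all genes. The peak of tin, which specifies heart and visceral mesoderm, had 211, 128 and 170 (170 ± 41.2) at 258 bp, that of NK7.1 had 150, 134 and 182 (156 ± 24.3) at 444 bp, and that of PHDP had 169, 171 and 115 (152 ± 31.4) at 480 bp.

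Stress, growth and housekeeping genes are given last. Of 40 heat shock and chaperone genes, 9 (22.5%) had a proximal peak, against 3 (7.50%) with a core promoter peak, a share near the 6.86% of all genes. All 9 had an upstream peak and 1 also a downstream one, beside 1051 of all 1224 served genes with an upstream peak. Hsp83, the fly Hsp90, had 769, 511 and 621 (634 ± 130) at 109 bp, Hsp27 had 410, 464 and 355 (410 ± 54.5) at 171 bp, and Hsp26 had 184, 96.6 and 97.9 (126 ± 50.3) at 133 bp. Of the cytosolic ribosomal protein genes, 6 of 93 (6.45%) had a proximal peak, while 73 (78.5%) had a core promoter peak. Their highest proximal peaks were those of RpS20 (154 ± 49.9), RpL10Ab (85.9 ± 37.7) and RpS23 (83.4 ± 7.49). Both RpL10Ab and RpS23 also had a core promoter peak. In replicate 2 the RpL10Ab value of 125 is that of a region holding both summits. For the lists that follow, the shares of all genes are 8.78% with a proximal peak and 6.86% with a core promoter peak. Of 54 translation factor genes 4 (7.41%) were served, against 8 (14.8%) with a core promoter peak. Highest was eIF6, needed for 60S ribosomal subunits, at 586, 870 and 606 (687 ± 159), then eIF3h (144 ± 21.4, downstream) and eIF5B (93.0 ± 32.4). In replicate 1 the eIF3h region also holds the summit of its core promoter peak. Of 75 mitochondrial ribosomal protein genes 2 were served, mRpL41 and mRpL4 (54.7 ± 9.96), against 6 with a core promoter peak. Of 41 cell cycle genes 3 were served, against 1 with a core promoter peak: Dp, the partner of E2F (289 ± 23.9), CycE (234 ± 24.5) and E2f1, whose site was missing from replicate 2. Of 40 transport genes 3 were served, against 4 with a core promoter peak: Rab5, an early endosome GTPase gene (220 ± 27.6), deltaCOP, a coatomer gene (125 ± 8.05), and Rab26 (69.6 ± 26.4). Lists of this size were not tested for enrichment, and long genes with several TSSs, which many regulatory genes are, had more chances to be counted.

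**Figure D4:**
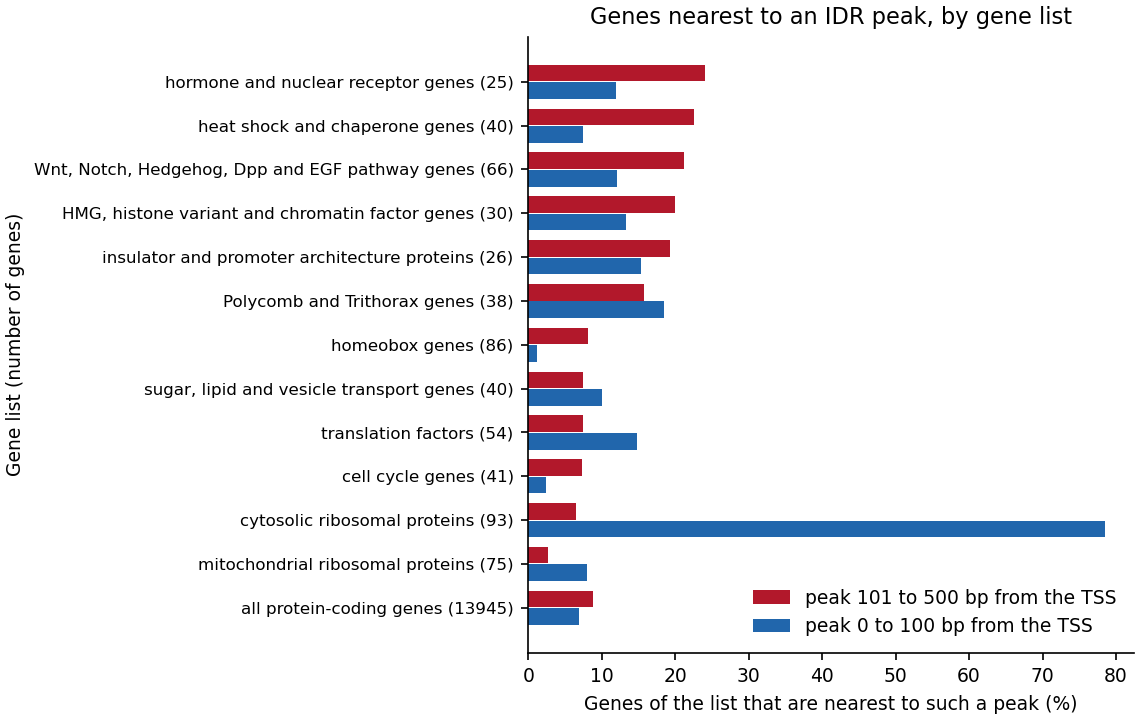
Percent of the genes in each of 12 lists, with all protein-coding genes at the bottom, whose TSS is nearest to a proximal peak (red) or to a core promoter peak (blue); the number of genes is in brackets. Cytosolic ribosomal protein genes stand at 6.45% in red and 78.5% in blue, and heat shock and chaperone genes at 22.5% in red and 7.50% in blue.

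The words of the core promoter were much rarer at proximal summits than at core promoter summits. A 200 bp window at a proximal summit ends short of the nearest TSS, while one at a core promoter summit holds that TSS or ends next to it. The distance rule thus decides whether the TSS is in the window, and its part in the difference was not tested. In the 200 bp at the summit, on either strand, TATCGATA was present in 26 proximal peaks (1.87%), against 95 of 976 core promoter peaks (9.73%) and 2.35% of all peaks. GGTCACAC was present in 17 proximal peaks (1.22%), all upstream, against 77 core promoter peaks (7.89%) and 1.88% of all. Among each replicate's highest peaks, TATCGATA was in 1.71%, 1.73% and 1.42% of proximal windows and in 8.33%, 10.1% and 10.4% of core promoter windows of replicates 1, 2 and 3, a mean difference of -7.99 ± 1.23 percentage points (SD, n = 3 lists, exact permutation p = 0.25, lower in 3 of 3). For GGTCACAC the shares were 0.723%, 1.08% and 0.783% in proximal windows and 7.34%, 6.80% and 8.88% in core promoter windows, a mean difference of -6.81 ± 1.20 points (exact permutation p = 0.25, lower in 3 of 3). By side, TATCGATA was in 25 of 1158 upstream windows (2.16%) and 1 of 234 downstream (0.427%). Peaks at 501 to 1000 bp held it in 0.370% and peaks farther out in 0.299%.

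The start sites served by upstream members carried these words less often than those served by core promoter peaks. In the 200 bp at the TSS itself, TATCGATA was present at 3.88% of the TSSs with an upstream proximal peak and 6.47% of those with a downstream one, against 10.3% of those with a core promoter peak and 6.44% of all protein-coding TSSs. For GGTCACAC the shares were 4.87% upstream and 6.90% downstream, against 9.63% at core promoter peaks and 5.68% over all. The exact binomial 95% interval for TATCGATA was 2.82 to 5.19% at TSSs with an upstream peak, 3.66 to 10.4% with a downstream one, 8.51 to 12.4% with a core promoter peak and 6.09 to 6.79% over all TSSs. The GC content there averaged 45.8% at TSSs with an upstream peak and 44.4% with a downstream one, against 42.4% at those with a core promoter peak. This count at the TSS was added after the data were seen.

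Upstream members were poorer in GC than downstream members and core promoter peaks. The 200 bp at upstream summits had a mean GC content of 34.8% ± 7.26 (SD over peaks, n = 1158), against 41.0% ± 8.16 at downstream summits (n = 234), 40.4% at core promoter summits, 36.9% at 501 to 1000 bp and 36.6% farther out. All members together averaged 35.9% ± 7.77. In the replicate lists, upstream windows of the highest peaks averaged 34.9% ± 0.42 GC and downstream ones 41.8% ± 0.76 (SD, n = 3 lists, exact permutation p = 0.25, lower upstream in 3 of 3). Upstream windows of the lower regions in the same lists averaged 39.6% ± 0.75.

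Homeodomain words were more frequent at proximal than at core promoter summits, and for TAATTA the difference was not seen in peaks under 40% GC. TAATTA was present in 19.1% of proximal windows, 19.9% upstream and 15% downstream, against 13.2% of core promoter windows and 16.6% of all. CAATTA was present in 19% of proximal windows, against 14.9% of core promoter windows and 18.9% of all. Peaks at 501 to 1000 bp held CAATTA in 20.3% and peaks farther out in 19.9%. For CAATTA the proximal share was thus near that of all peaks, and the core promoter share was the low one. Peaks at 501 to 1000 bp held TAATTA in 15.2% and peaks farther out in 16.8%, both below the proximal share. Among each replicate's highest peaks, TAATTA was in 18.3%, 19.8% and 17.4% of proximal windows and in 12.4%, 13.1% and 12.9% of core promoter windows of replicates 1, 2 and 3, a mean difference of 5.70 ± 1.06 points (SD, n = 3 lists, exact permutation p = 0.25, higher in 3 of 3). For CAATTA the mean difference was 6.57 ± 0.35 points (exact permutation p = 0.25, higher in 3 of 3). Within windows under 35% GC, TAATTA was in 24.8% of upstream and 27.3% of downstream members, against 25.9% of core promoter peaks and 23.5% of upstream regions under the threshold. At 35 to under 40% GC it was in 16.8% of upstream and 18.6% of downstream members and 17.2% of core promoter peaks. At 40% GC or more it was in 11.1% of upstream and 7.50% of downstream members, against 4.77% of core promoter peaks. In the replicate lists the proximal minus core difference in that last bin was 3.67 ± 0.65 points (SD, n = 3 lists, exact permutation p = 0.25). For CAATTA the difference between proximal and core promoter peaks, 4.18 points over all windows, was 2.26, 0.76 and 2.05 points in the bins from low to high GC, and in the replicate lists 6.71 ± 3.06, 0.18 ± 5.73 and 3.47 ± 0.49 points (SD, n = 3 lists). The 4.18 points became 2.27 in the higher-signal part of the peak list. Among peaks within the 5586 highest regions of both remaining lists, the difference was 2.38 points without replicate 1. It was 3.88 points without replicate 2 and 1.59 points without replicate 3. These bins were added after the data were seen.

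**Figure D5:**
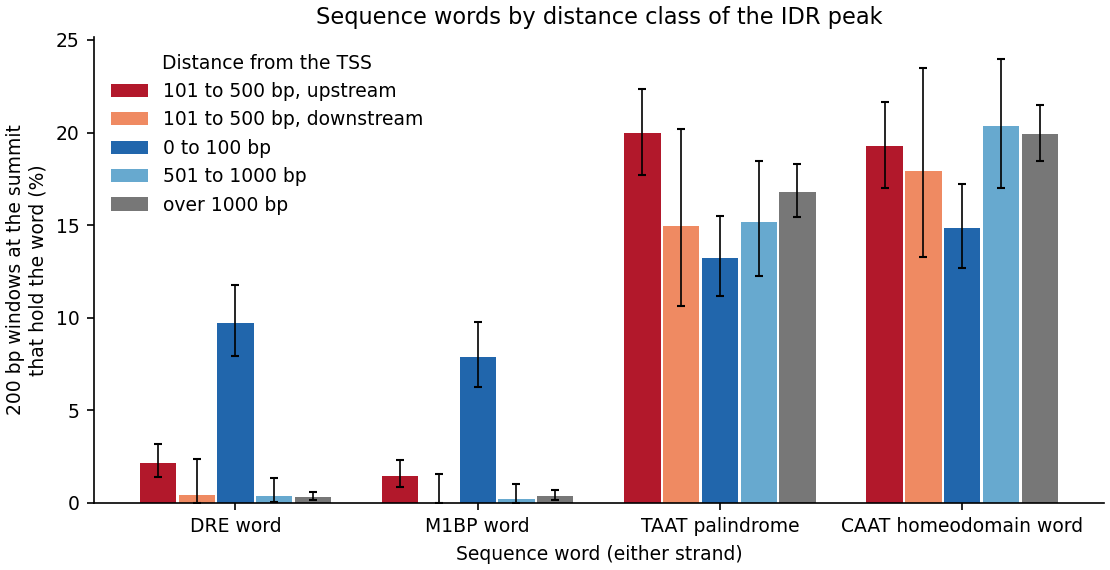
Percent of the 200 bp windows at peak summits that hold the DRE word (TATCGATA), the M1BP word (GGTCACAC), the TAAT palindrome (TAATTA) or the CAAT homeodomain word (CAATTA) on either strand, by distance of the summit from the TSS, with exact binomial 95% intervals. The first pair is at most 2.16% in proximal peaks and at least 7.89% in core promoter peaks, and TAATTA is at 19.9% upstream and 15% downstream in proximal peaks, against 13.2% in core promoter peaks.

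Further words were counted in the same windows, where a match is a description and no site. CATTAA was in 20.6% of upstream and 12% of downstream members, against 12.5% of core promoter peaks and 16.3% of all peaks, and TTATTG in 25% of upstream and 19.7% of downstream members, against 16.4% of core promoter peaks and 21.2% of all. The GAGA factor word GAGAGA was in 12.2% of proximal and 8.50% of core promoter peaks, and in 11.5% of all. A word of the serpent class of zinc finger factors, AGATAA, was in 15.4% of proximal and 10.5% of core promoter peaks, and in 14.7% of all. The E-box CATATG was in 7.83% of proximal and 5.02% of core promoter peaks, and in 8.13% of all. CAGGTA, the word of the early activator Zelda, was in 4.38% of proximal and 4.71% of core promoter peaks and 4.62% of all. The A/T-rich words can share letters with each other in 1 window, so their counts overlap.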

How the data were processed

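ChIP-seq lists on dm6 from 3 replicates, their pooled reads and the reproducible (irreproducible discovery rate, IDR) set were used; dm3 lists were not used. Signal and −log10 q were deposited by the authors in the lists, and the replicate and pooled lists of 30000 regions served as input for IDR, per the labels and file names. Per the deposited file descriptions, replicates shared 1 control. The sources used here do not give the aligner, the caller or the IDR cutoff. Read depth is unknown.

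Distances ran from each summit to every transcript start of protein-coding genes (Ensembl 115, BDGP 6.54, dm6 coordinates); sequence came from genome release 6. The background was the 23262 pooled regions overlapping no IDR peak. Replicate signals are of the region holding the summit, without rescaling, so their SD includes scale. A region that holds summits of neighbouring peaks gives its signal to each of them. Exact sign-flip tests over 3 lists cannot pass 0.05, with or without adjustment, and describe these samples, which the labels call biological replicates; peaks are not replicates, and intervals cover counting error only. Python 3.11.15, numpy 2.4.6, pandas 2.3.3 and scipy 1.17.1 were used; functions were tested on simulated data.

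Named genes were HHEX, the 12 highest members per side found in all lists and up to 3 per gene list. Members, lists and words were chosen with earlier results of these data known, and some symbols and list members were changed after the files were read. Printed windows avoided untranslated sequence beyond 30 bases.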

Additional observations from a re-analysis of the deposited data

How the results depend on the processing

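No paired analysis was possible because the series has 1 group. The alternatives were start sites limited to the first of each gene or widened to noncoding genes, an inner limit 50 bp farther out, the middle of the peak for its summit, the higher-signal part of the IDR list (2793 peaks), 100 bp windows, other rules for finding a site again, and leaving out a replicate. Leaving out a replicate did not recompute the IDR list or its pooled signal. It kept only IDR peaks whose summit lay among the 5586 highest regions of both other lists, so it also selects by height. For the share of sites found again, all 1392 members were kept. No p could pass the threshold, so only direction and size are compared. The side, signal and core promoter word results kept their direction under every alternative. Upstream minus downstream share, 66.4 percentage points, ranged from 52.4 (first start site of each gene) to 76.8 (higher-signal part), and from 67.6 to 76.6 without 1 replicate; the mean of the replicate lists, 60.9 ± 8.64 points (SD), was 57.2 ± 20.3 over regions whose −log10 q reached 2. The log2 signal ratio of proximal to core promoter peaks ranged from 0.18 to 0.32, and of upstream to downstream from 0.20 to 0.52. The proximal minus core difference for GGTCACAC shrank to -2.54 points in 100 bp windows. The share found in all 3 lists was 95.1% in the higher-signal part, 76.4% with an overlap of at least 50% of both regions and 65.9% among the highest regions; without 1 replicate it was 89.7 to 97.2%, the last without replicate 2. Genes served numbered 762 with the higher-signal part, and 890 to 958 without 1 replicate. In GC bins, added after seeing the data, TAATTA reversed to -0.96 points under 35% GC and -0.13 points at 35 to under 40%, where the replicate lists gave 1.29 ± 2.31 and -3.14 ± 2.59 (exact permutation p = 0.75 and 0.25, n = 3); the cause was not tested.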
